A study of Homo sapiens with 6 samples.

Results

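The large subunit assembly factors are proteins that build the 60S ribosomal subunit around its ribosomal RNA and leave before the subunit takes part in translation. The group held 57 named genes, each matched by symbol to an Ensembl entry, of 61853 entries measured. The study sequenced RNA of the human embryonic stem cell line H9, an established line, and of arcuate neurons, a hypothalamic cell type, made from it in culture. The day 0 group was 3 libraries of H9 cells before differentiation. The day 30 group was 3 libraries of cells taken through KSR and N2 medium with SHH, purmorphamine, SB431542 and LDN-193189, then through N2 medium with B-27 and DAPT, and last with B-27 and BDNF, after replating in a ROCK inhibitor. All libraries came from this 1 cell line, and no label states that replicates came from separate cultures. The p-values therefore cover the spread among these libraries, which may be technical. The libraries held 5013643 to 12924842 counts each, and the shallowest was day 30 replicate 3.

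Assembly of the large subunit runs through 3 places in the cell. In the nucleolus the precursor RNA is folded, modified and bound by ribosomal proteins. In the nucleoplasm large ATPases remodel the particle, the remaining internal spacer of the precursor is removed and the particle becomes fit for export. In the cytoplasm export and placeholder proteins are stripped off before the subunit can join a small subunit. By these roles 35 of the genes were placed in the nucleolar stage, 14 in the nucleoplasmic stage and 8 in the cytoplasmic stage, with 13 of the 57 marked as borderline because they travel between places.

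The labelled cell types matched their markers. All 8 pluripotent cell markers fell from day 0 to day 30, and their summed level went from between 5497 and 6219 CPM (counts per 1e6 counts of a library, after TMM scaling of library sizes) to between 21.7 and 32.3 CPM. All 8 neuronal markers rose, and POMC, the peptide precursor of arcuate neurons, went from 1.01 ± 0.240 to 1516 ± 356 CPM (SD, n = 3 per day, as for all values given as ± SD). Of 10 hypothalamic and arcuate markers, the 7 tested rose. AGRP and NPY, markers of another arcuate neuron type, and RAX, an early hypothalamic factor, were too low to test. All 8 dividing cell markers fell, with a sum of 1871 to 1983 CPM on day 0 and 34.1 to 66.3 CPM on day 30. Mesenchymal and neural crest markers summed to 222 to 325 CPM on day 0 and to 177, 630 and 4334 CPM in day 30 replicates 1, 2 and 3, so that replicate 3 stood apart. Of them, 4 of the 5 tested of 8 rose and 1 fell, with DCN at 0 on day 0 and FOXD3 at 0 on day 30. The sums for neural progenitor markers were 1413 to 2277 CPM on day 0 and 971 to 1168 CPM on day 30, with HES5 at 0 on both days, and those for astroglia were 699 to 1207 and 35.0 to 155 CPM, with S100B at 0 on day 0. Oligodendroglia markers summed to 128 to 174 and 28.0 to 43.1 CPM with MOG at 0 on both days, endoderm markers to 10.3 to 17.9 and 0.205 to 0.939 CPM with SOX17 at 0 on both days and GATA4 at 0 on day 30, and endothelial markers to 192 to 266 and 3.48 to 6.39 CPM with none at 0. Of 5 neural progenitor markers tested 2 fell, 1 rose and 2 did not pass. Of 4 oligodendroglia markers tested 2 fell and 2 did not pass. The 3 astroglia, 2 endothelial and 1 endoderm genes tested all fell, and the rest of these lists were too low to test. These sums thus rest on few genes. Whether these other cell types were present was not tested, nor was their part, or that of dividing cells, in the results.

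The RNAs of nearly all large subunit assembly factors were lower on day 30. Only RNA was measured, so a fall or rise of a factor here is one of its RNA. Of 56 tested, 51 fell, 3 rose and 2 did not pass, at an adjusted p under 0.05 from edgeR's quasi-likelihood test with Benjamini-Hochberg adjustment over all 18040 genes tested. Of all genes tested 76.6% passed in either direction, 36.8% as lower and 39.8% as higher. By 2-fold or more, 37 of the factors fell, or 66.1%, against 24.7% of all genes. In bulk samples, fewer cells with a given RNA and less of it per cell cannot be told apart. The median log2 fold change of day 30 against day 0 was −1.38 for the factors and 0.08 for all genes. For 51 factors every day 0 library was above every day 30 library, as for 38.2% of all genes tested, and for 3 factors the reverse held, as for 41.3% of all genes tested.

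The median fall was larger in the nuclear stages than in the cytoplasm. Nucleolar factors had a median log2 fold change of −1.47, with 32 of 34 tested lower and 1 higher. For nucleoplasmic factors the median was −1.27 and all 14 fell. Cytoplasmic factors had a median of −0.71, with 5 of 8 lower, 2 higher and 1 that did not pass. Falls of 2-fold or more numbered 27 of 34, 8 of 14 and 2 of 8 in the same order, against 24.7% of all genes tested. By this 2-fold count alone the cytoplasmic share was about that of all genes. Counting every call, 5 of 8 cytoplasmic factors were lower, against 36.8% of all genes tested. Their median of −0.71 was also below the 0.08 of all genes. Without the borderline factors, 2 of 5 cytoplasmic factors fell by 2-fold or more. With the borderline factors left out the medians were −1.47, −1.32 and −0.58, from 30, 8 and 5 tested genes. Without day 30 replicate 3, the library with the most mesenchymal RNA, the medians of all members of each stage were −1.38, −1.23 and −0.67 and the numbers of members lower and higher were the same. The difference between stages was not tested, since the members were chosen with results of these data known. As a sum, the nucleolar factors went from 2649 ± 191 to 1135 ± 82.5 CPM, or from 2570 ± 183 to 975 ± 48.9 CPM without WDR74, whose day 30 reads are doubtful, and the cytoplasmic factors from 428 ± 52.2 to 267 ± 14.4 CPM. The nucleoplasmic sum went from 2311 ± 168 to 577 ± 17.4 CPM, and without MDN1, which held a large part of it, from 987 ± 45.1 to 418 ± 3.29 CPM.

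**Figure D1:**
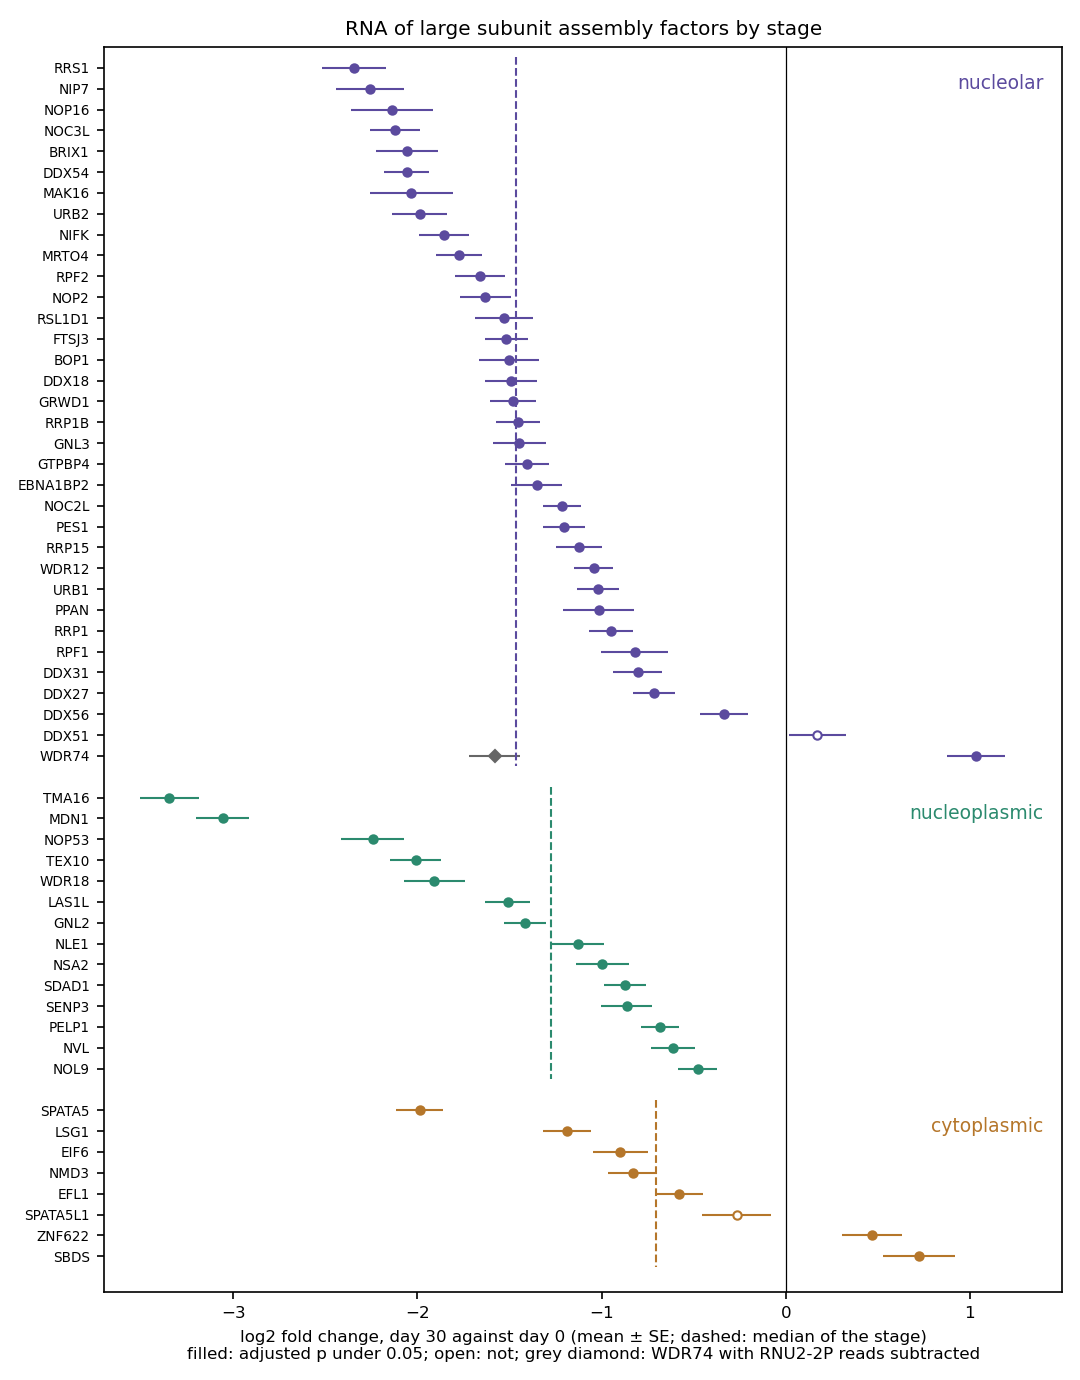
Log2 fold change of day 30 against day 0 for the 56 tested factors, grouped by stage, with approximate standard errors as bars, stage medians as dashed lines, and open points for genes that did not pass. Most points lie left of 0, the cytoplasmic median of −0.71 lies nearest to 0, and WDR74 moves from 1.03 to −1.58 (grey diamond) when reads of the overlapping RNU2-2P gene are subtracted.

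Promoters were read from RefSeq (GRCh38.p14) for 49 of the 57 genes, in windows from 250 bases before to 50 bases after the start, to show what letters the promoters of the factors share. The E-box CACGTG, the sequence that MYC and MAX bind, was in 14 of the 49 windows (28.6%) on either strand, against 8.88% of 15843 windows of protein-coding genes. It was in 7 of 27 nucleolar, 7 of 14 nucleoplasmic and 0 of 8 cytoplasmic windows. Tested genes with the E-box had a median log2 fold change of −1.52 (14 genes), and those without it −1.02 (34 genes). The group without it holds every cytoplasmic gene and WDR74 as deposited. The genes with no window were BOP1, DDX18, RPF2, RRS1, RSL1D1, RRP1B, MAK16 and URB2, and they are in neither group. All were nucleolar and lower on day 30, with log2 fold changes from −2.34 (RRS1) to −1.45 (RRP1B). The difference between the groups was not tested. In the same libraries MYCN went from 60.7 ± 7.23 to 7.03 ± 1.07 CPM and MYC from 66.7 ± 7.19 to 39.0 ± 1.05 CPM, and both fell. Of all 11 genes of the MYC family tested, 5 fell and 5 rose, and a role of these genes in the factors' levels was not tested. The following windows are the 160 bases before the start of 4 factors with an E-box there, 5′ to 3′, with the E-box in capitals.
MDN1, chr6:89819795-89819954, minus strand: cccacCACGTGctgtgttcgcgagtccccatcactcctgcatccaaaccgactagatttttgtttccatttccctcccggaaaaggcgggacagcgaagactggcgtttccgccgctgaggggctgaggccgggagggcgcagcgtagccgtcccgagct
TEX10, chr9:100352943-100353102, minus strand: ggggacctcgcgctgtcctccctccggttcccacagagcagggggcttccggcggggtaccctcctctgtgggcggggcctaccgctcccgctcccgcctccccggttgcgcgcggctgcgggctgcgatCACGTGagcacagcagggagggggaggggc
DDX54, chr12:113185479-113185638, minus strand: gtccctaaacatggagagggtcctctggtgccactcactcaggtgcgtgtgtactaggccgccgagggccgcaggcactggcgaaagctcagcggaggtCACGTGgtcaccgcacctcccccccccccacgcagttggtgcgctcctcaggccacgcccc
DDX31, chr9:132669984-132670143, minus strand: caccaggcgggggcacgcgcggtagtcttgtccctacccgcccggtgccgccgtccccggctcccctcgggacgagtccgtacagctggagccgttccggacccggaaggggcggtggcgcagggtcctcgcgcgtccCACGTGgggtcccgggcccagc
MDN1, TEX10 and DDX54 are among the factors with the larger falls and DDX31 among those with smaller ones, and their values follow by stage. The E-box begins 155, 30, 61 and 22 bases before the start in these 4 windows. A match to letters is a description of the sequence and shows no binding.

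The letters CCGGAAG, a core bound by ETS factors, searched like all motifs on both strands, were in 24 of 49 windows (49.0%) against 14.2% of coding windows, and in 6 of the 8 cytoplasmic windows. The YY1 letters AAGATGGCG were in 6 windows (12.2% against 2.74%). The NRF1 motif, which reads the same on both strands, was in 1 (2.04% against 1.75%), and TATAAA was in 2 (4.08% against 9.63%). The ETS letters end in AAG and the YY1 letters begin with it, so these motifs can overlap. The median log2 fold change of tested genes with and without the ETS letters was −1.16 and −1.17. For YY1 it was −1.77 (6 genes) and −1.13, and for TATAAA −1.53 (2 genes) and −1.16. NOP53 is in both of these small groups, and no difference between groups was tested. The cytoplasmic factors are shown by LSG1, which fell, and by ZNF622 and SBDS, which rose, with the ETS letters in capitals in LSG1 and ZNF622 and the YY1 letters in SBDS. The other 5 genes with the YY1 letters, BRIX1, NIP7, PELP1, NOP53 and GRWD1, all fell.
LSG1, chr3:194672192-194672351, minus strand: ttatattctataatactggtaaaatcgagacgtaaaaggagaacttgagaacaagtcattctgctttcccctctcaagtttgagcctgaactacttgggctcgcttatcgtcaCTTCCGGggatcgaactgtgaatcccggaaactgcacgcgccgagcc
ZNF622, chr5:16465801-16465960, minus strand: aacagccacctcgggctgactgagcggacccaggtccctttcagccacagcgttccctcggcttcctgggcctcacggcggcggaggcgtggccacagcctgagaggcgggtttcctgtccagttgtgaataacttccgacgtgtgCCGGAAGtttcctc
SBDS, chr7:66995587-66995746, minus strand: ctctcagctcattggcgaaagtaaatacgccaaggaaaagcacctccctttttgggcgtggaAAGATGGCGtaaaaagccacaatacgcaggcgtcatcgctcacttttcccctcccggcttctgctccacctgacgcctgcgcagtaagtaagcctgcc
The capitals begin 47, 14 and 98 bases before the start in this order.

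In the nucleolus, the largest falls were those of RRS1, NIP7 and NOP16. RRS1, which with RPF2 brings the 5S RNA and its proteins into the particle, was at 27.3, 25.8 and 26.1 CPM in day 0 replicates 1 to 3 and at 4.76, 6.20 and 4.32 CPM on day 30. All day 0 libraries were above all day 30 libraries, with a log2 fold change of −2.34 ± 0.17 (approximate SE; adjusted p = 4.59e-07, edgeR, as for the adjusted p-values that follow). Its partner RPF2 fell less, from 60.6 ± 5.60 to 19.0 ± 2.15 CPM, a log2 fold change of −1.66 ± 0.14. NIP7, a protein needed for processing of the precursor, was at 38.8, 51.3 and 51.2 CPM on day 0 and at 11.2, 10.5 and 7.14 CPM on day 30 (−2.26 ± 0.19). NOP16 was at 29.1, 40.5 and 40.9 CPM on day 0 and at 8.91, 10.0 and 5.26 CPM on day 30 (−2.14 ± 0.22). For both genes the groups did not overlap, and the lowest value on day 30 was that of replicate 3. NOP16 had the widest spread of the factors on day 30, with an SD of 30.8% of its mean, where the median over factors was 10.4%.

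The RNAs of the 3 proteins of the PeBoW complex, which is needed to process the spacer beside the large subunit RNA, all fell. PES1 went from 90.1 ± 4.57 to 39.2 ± 3.69 CPM (−1.21 ± 0.12), BOP1 from 53.1 ± 6.88 to 18.6 ± 3.70 CPM (−1.50 ± 0.16) and WDR12 from 97.0 ± 6.46 to 47.0 ± 1.53 CPM (−1.04 ± 0.11). The ratio of PES1 to BOP1 within a library, which needs no scaling between libraries, was 1.41, 1.92 and 1.83 on day 0 and 1.69, 2.05 and 2.77 on day 30, with ranges that overlapped. The methyltransferases of the large subunit RNA also fell, with log2 fold changes of −1.63 for NOP2 and −1.52 for FTSJ3, as did the GTPases GNL3 (−1.45) and GTPBP4 (−1.41). GNL3, nucleostemin, is a nucleolar protein known for its abundance in stem cells, and it went from 166 ± 23.2 to 60.6 ± 8.37 CPM. In level per length (CPM per kb of exon) it ranked 2 among the factors on day 0. MRTO4, which holds the place of the stalk protein RPLP0, fell by 1.77 on the log2 scale, and GRWD1, a chaperone of RPL3, changed by −1.48.

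RNA helicases, which use ATP to open RNA structure, varied widely among themselves. Of 6 tested, 5 fell, with a median of −0.76, while the 28 other nucleolar factors had a median of −1.49. DDX54 fell by 2.06 on the log2 scale, from 77.1 ± 1.89 to 18.6 ± 1.83 CPM, and DDX18 had a log2 fold change of −1.49. DDX31 and DDX27 fell less, at −0.80 and −0.72. DDX56 had the smallest fall, from 51.5 ± 6.34 to 40.8 ± 3.79 CPM, a log2 fold change of −0.33 ± 0.13 (adjusted p = 0.0385). That call was lost without day 0 replicate 2 (−0.26, adjusted p = 0.141), day 30 replicate 1 (−0.27, 0.117) or day 30 replicate 2 (−0.36, 0.0767), and with total counts only (−0.24, 0.126), the same without 7SL and 7SK RNA (−0.23, 0.141), no filter on low counts (−0.35, 0.0687) or the stricter filter (−0.22, 0.156), over a range of 0.0203 to 0.156. DDX51 was at 16.8, 17.6 and 13.2 CPM on day 0 and at 17.4, 17.7 and 18.6 CPM on day 30. Its groups overlapped and it did not pass (0.17 ± 0.16, adjusted p = 0.333). DDX24 held at most 5 counts in any library and was not tested.

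The scaffold proteins of the nucleolar particle are the largest module, and the RNAs of 16 of 17 fell. Besides NIP7 and NOP16, NOC3L, BRIX1, MAK16 and URB2 fell by about 4-fold, with log2 fold changes of −2.12, −2.06, −2.03 and −1.99. NIFK (−1.86), RSL1D1 (−1.53), RRP1B (−1.45), EBNA1BP2 (−1.35), NOC2L (−1.22), RRP15 (−1.12), URB1 (−1.02), PPAN (−1.02), RRP1 (−0.95) and RPF1 (−0.82) filled the range below that. PPAN shares 1447 bases of exon with the readthrough transcript PPAN-P2RY11, so the division of its reads is uncertain. The same holds for NOP2, GRWD1, EIF6, RRS1 and SDAD1, which share 2550, 350, 284, 194 and 102 bases of exon with other same-strand entries. Since the strand setting of the counting is not known here, reads of antisense neighbours may also be counted with some factors. URB1 and URB2, which act together, parted between the days: the ratio of URB1 to URB2 was 1.81, 1.63 and 1.61 on day 0 and 2.49, 3.38 and 4.53 on day 30. The paralogs RRP1B and RRP1 went the other way, with ratios of 3.59, 4.10 and 4.69 on day 0 and 3.12, 2.88 and 2.66 on day 30.

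WDR74, a scaffold protein released by the ATPase NVL on the way out of the nucleolus, was the only nucleolar factor listed as higher. As deposited it was at 70.1, 80.9 and 85.1 CPM on day 0 and at 159, 196 and 126 CPM on day 30 (1.03 ± 0.16, adjusted p = 0.00014). The U2 RNA gene RNU2-2P lies in its exons on the same strand (chromosome 11, 62841619 to 62841809, hg38) and rose from 29.8 ± 3.41 to 144 ± 33.5 CPM. The RNU2-2P count of each library was subtracted from that of WDR74. How many RNU2-2P reads the WDR74 entry held is not known, so the size of this subtraction is an assumption. After it, WDR74 was at 43.5, 51.3 and 51.7 CPM on day 0 and at 15.7, 18.2 and 14.7 CPM on day 30. The groups then did not overlap in the other direction, and the log2 fold change was −1.58 ± 0.14 (adjusted p = 1.78e-06). With this subtraction 33 of 34 nucleolar factors fell and none rose, and of all 56 factors 52 fell and 2 rose.

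**Figure D2:**
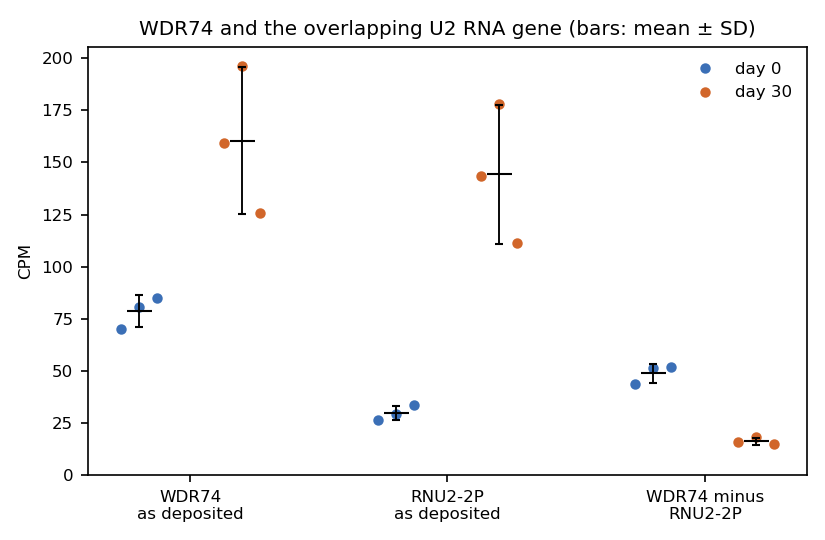
CPM of WDR74 as deposited, of the overlapping RNU2-2P, and of WDR74 after subtraction, with 1 point per library and mean ± SD. The deposited WDR74 values are higher on day 30 (160 against 78.7 CPM), RNU2-2P is higher too, and the remainder is lower on day 30 (16.2 against 48.9 CPM).

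Among nucleoplasmic factors, TMA16 and MDN1 fell most of all 56 factors tested. TMA16, a protein of pre-60S particles, was at 53.3, 49.0 and 60.1 CPM on day 0 and at 5.12, 4.81 and 6.39 CPM on day 30, a log2 fold change of −3.35 ± 0.16, from 148 counts in all on day 30. MDN1 (chromosome 6, 89642499 to 89819723, hg38) encodes a giant ATPase related to dynein, which pulls assembly factors off the particle. It was at 1219, 1507 and 1247 CPM on day 0 and at 140, 156 and 181 CPM on day 30 (−3.06 ± 0.14, adjusted p = 1.45e-08). MDN1 had the highest level per length of all factors on day 0, at 71.2 ± 8.53 CPM per kb, and on day 30, at 8.55 ± 1.10 CPM per kb, it ranked 14. Its share of the summed CPM of the 56 factors was 24.5%, 26.8% and 22.4% in day 0 replicates 1 to 3, and on day 30 it was 7.06%, 7.58% and 9.57%.

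MDN1 acts through NLE1, which it pulls, and NLE1 fell less, from 41.5 ± 4.06 to 18.9 ± 2.19 CPM (−1.13 ± 0.14). The ratio of MDN1 to NLE1 was 32.9, 33.5 and 29.3 on day 0 and 6.56, 9.06 and 9.93 on day 30. NVL, the ATPase that frees WDR74, went from 48.2 ± 1.73 to 31.7 ± 2.91 CPM (−0.61 ± 0.12). NOP53, which recruits the RNA exosome to the spacer, was at 100.0, 76.1 and 103 CPM on day 0 and at 22.5, 20.5 and 15.2 CPM on day 30 (−2.24 ± 0.17), with no overlap. GNL2, a GTPase, and SDAD1 fell too, with log2 fold changes of −1.42 and −0.87, and NSA2 went from 72.2 ± 13.5 to 36.3 ± 2.03 CPM.

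The rixosome, the complex that cuts and trims the internal spacer, split into members with large and small falls. TEX10 and WDR18, scaffold proteins, went from 112 ± 14.6 to 28.1 ± 2.88 CPM (−2.01 ± 0.14) and from 32.7 ± 3.80 to 8.61 ± 1.30 CPM (−1.91 ± 0.16). LAS1L, the nuclease, went from 107 ± 8.04 to 37.7 ± 4.13 CPM (−1.51 ± 0.12). The scaffold protein PELP1 (−0.68 ± 0.10), the SUMO protease SENP3 (−0.86 ± 0.14) and the RNA kinase NOL9 (−0.48 ± 0.11) fell by less than 2-fold. NOL9, at 80.8 ± 5.39 CPM on day 0 and at 58.0 ± 1.43 CPM on day 30, had the smallest fall of the nucleoplasmic stage. The readthrough entry SENP3-EIF4A1 shares 1511 bases of exon with SENP3 and fell by 1.99, so reads of SENP3 may be divided between them.

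**Figure D3:**
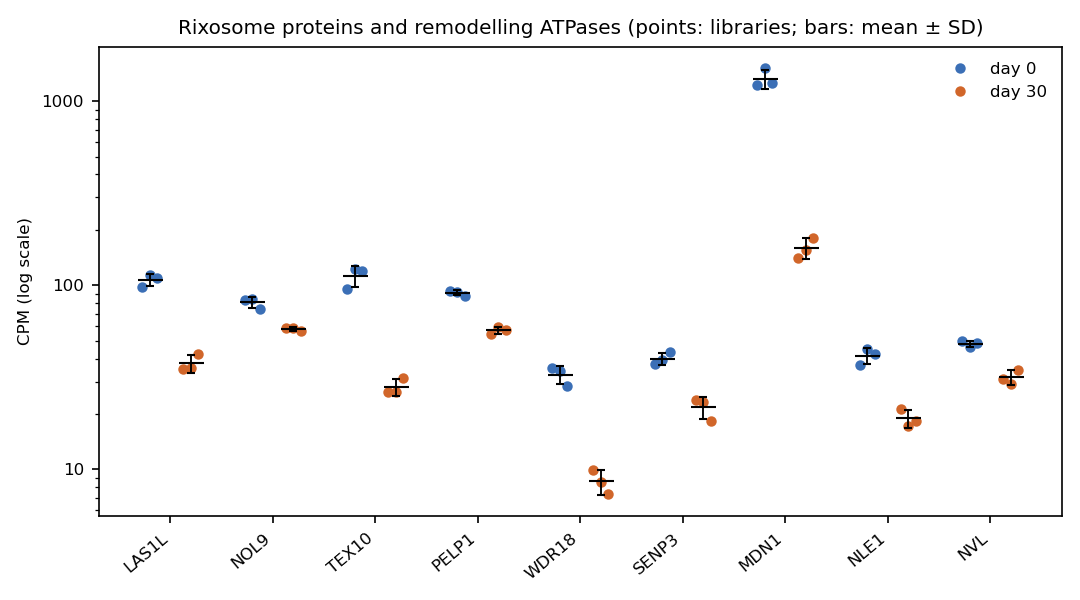
CPM on a log scale of the rixosome proteins, MDN1, NLE1 and NVL in each library (points) with mean ± SD (bars). TEX10, WDR18 and MDN1 show the widest gaps between the days, whereas NOL9, PELP1, SENP3 and NVL stay within a 2-fold gap.

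Within-library ratios put the split of the rixosome beside the other partners. Each rixosome pair sets a member with a larger fall over one with a smaller fall, so these ratios restate the split and add no evidence for it. LAS1L to NOL9 was 1.17, 1.34 and 1.46 on day 0 and 0.595, 0.605 and 0.753 on day 30. TEX10 to PELP1 was 1.02, 1.32 and 1.36 on day 0 and 0.483, 0.447 and 0.551 on day 30, and WDR18 to SENP3 was 0.948, 0.873 and 0.656 and then 0.415, 0.370 and 0.4. Of 15 pairs, which were chosen for their shared roles after values had been seen, 12 had ranges that did not overlap between the days. Each of these 12 had a 2-sided exact permutation p of 0.1 (n = 3 per day), the smallest that 3 against 3 libraries allow, and an adjusted p of 0.125 over the 15 pairs. How often ratios of other gene pairs separate the days was not computed, so 12 of 15 is not a result about partners. Taken singly, 38.2% of all genes tested had every day 0 library higher and 41.3% every day 30 library higher. The 3 pairs with overlapping ranges were PES1 to BOP1, WDR12 to PES1 and GNL3 to GNL2, with exact permutation p of 0.4, 0.3 and 0.9. The pairs share genes and libraries and are not independent.

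**Figure D4:**
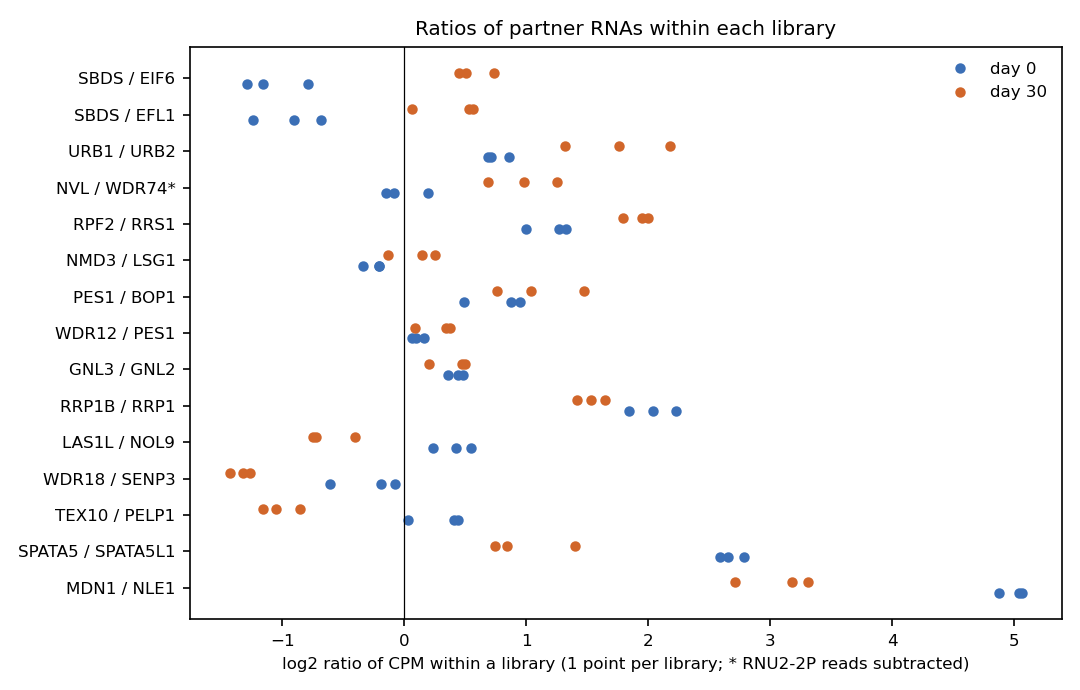
Log2 ratio of the CPM of partner genes within each library, 1 point per library, ordered by the difference between the days. MDN1 to NLE1 lies lowest in order with a difference of −1.93, SBDS to EIF6 highest with 1.65, and 3 pairs near the middle overlap.

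Cytoplasmic factors moved in both directions. SPATA5, an ATPase that strips the first factor from the exported particle, was at 73.2, 83.7 and 78.9 CPM on day 0 and at 17.6, 20.3 and 21.8 CPM on day 30, with a log2 fold change of −1.99 ± 0.13. Its relative SPATA5L1 was at 11.7, 12.1 and 13.1 CPM and then 9.83, 12.1 and 8.27 CPM, so the groups overlapped and it did not pass (−0.27 ± 0.19, adjusted p = 0.218). The ratio of SPATA5 to SPATA5L1 went from 6.27, 6.89 and 6.02 to 1.79, 1.68 and 2.64. LSG1, the GTPase that releases the export adaptor NMD3, was at 74.6, 91.4 and 99.3 CPM on day 0 and at 37.9, 39.1 and 39.5 CPM on day 30 (−1.19 ± 0.13). NMD3 went from 74.0 ± 8.20 to 41.4 ± 4.87 CPM (−0.83 ± 0.13). Neither gene had overlapping groups.

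The last step frees the subunit of EIF6, a protein that keeps it from joining a small subunit, through SBDS and the GTPase EFL1. EIF6 was at 49.2, 67.6 and 67.0 CPM on day 0 and at 35.8, 32.7 and 29.6 CPM on day 30 (−0.90 ± 0.15), and EFL1 went from 55.4 ± 6.03 to 37.1 ± 3.65 CPM (−0.58 ± 0.13, adjusted p = 0.00186). SBDS, the gene mutated in Shwachman-Diamond syndrome, was at 22.0, 27.6 and 38.7 CPM on day 0 and at 48.9, 54.5 and 42.1 CPM on day 30. It rose with no overlap (0.72 ± 0.19, adjusted p = 0.00569), although its day 0 spread, an SD of 28.9% of the mean, was the widest of all factors on that day. ZNF622, which acts on cytoplasmic pre-60S particles, was at 22.2, 29.4 and 32.7 CPM on day 0 and at 43.5, 38.9 and 33.6 CPM on day 30 (0.47 ± 0.16, adjusted p = 0.0233). The groups of ZNF622 came within 1 CPM of each other, and the call was lost without day 0 replicate 1 (0.29, adjusted p = 0.106), day 0 replicate 2 (0.47, 0.0581), day 30 replicate 1 (0.37, 0.0875) or day 30 replicate 2 (0.48, 0.0545), over a range of 0.00455 to 0.106.

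Both SBDS and EFL1 have an unprocessed pseudogene with reads. SBDSP1 was at 10.6 ± 1.58 CPM on day 0 and at 19.2 ± 4.30 CPM on day 30 and rose by 0.87 on the log2 scale. With SBDS and SBDSP1 summed the log2 fold change was 0.76 (adjusted p = 0.00254). EFL1P1 rose from 0.807 ± 0.397 to 9.62 ± 1.55 CPM (3.54 ± 0.34), and with EFL1 and EFL1P1 summed, an alternative chosen after seeing the data, the value was −0.27 and did not pass (adjusted p = 0.0777). How many reads passed between gene and pseudogene was not tested. The ratio of SBDS to EIF6 was 0.446, 0.409 and 0.578 on day 0 and 1.36, 1.66 and 1.42 on day 30, and that of SBDS to EFL1 was 0.422, 0.534 and 0.621 and then 1.47, 1.44 and 1.04. On day 30, SBDS and ZNF622 ranked 2 and 3 in level per length among the 56 factors, at 28.0 ± 3.59 and 22.8 ± 2.92 CPM per kb, after WDR74 as deposited.

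**Figure D5:**
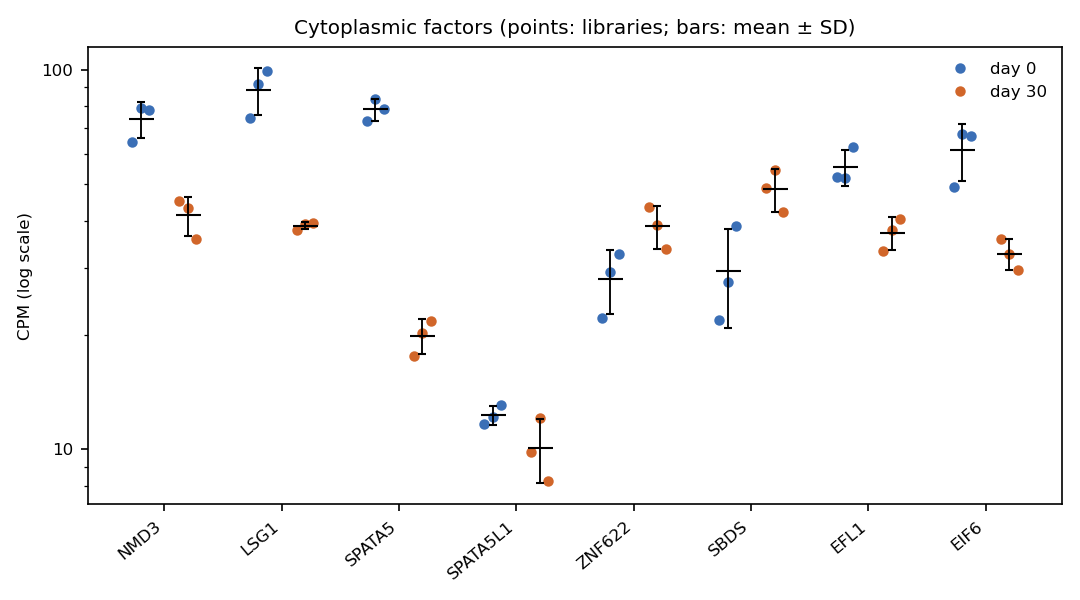
CPM on a log scale of the 8 cytoplasmic factors in each library (points) with mean ± SD (bars). SPATA5 shows the widest gap (78.6 against 19.9 CPM), SBDS and ZNF622 are higher on day 30, and SPATA5L1 overlaps.

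Other genes of the same pathway, from a list of 27 further large subunit assembly genes, moved likewise. Of the 27 all were tested, 24 fell and 0 rose, where 36.8% of all genes tested were lower and 39.8% higher. Their median log2 fold change was −0.99, which is nearer to 0 than that of the 56 factors. LYAR, a nucleolar zinc finger protein, had the largest fall, from 50.4 ± 6.72 to 6.16 ± 1.61 CPM (−3.07 ± 0.19). HEATR3, DUSP12 and CINP did not pass, at −0.07, 0.09 and −0.12. The RNAs of the proteins these factors assemble fell further: all 47 large subunit ribosomal protein genes fell, with a median of −2.35. RPL12 was lowest at −2.95 ± 0.12 and RPL15 nearest to 0 at −1.10 ± 0.14. RPL3, whose chaperone is GRWD1, went from 1212 ± 94.3 to 175 ± 4.18 CPM, and RPL5 and RPL11, which enter with RPF2 and RRS1, had log2 fold changes of −2.19 and −2.63. Of 11 genes of the MYC family tested 5 fell and 5 rose, with a median of 0.04. MYCN had the largest fall and MXD1 the largest rise, by 2.28 on the log2 scale. Across the 56 factors the log2 fold change had a Pearson's r of −0.21 and a Spearman's rho of −0.08 with exon length, a description over genes that share libraries.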

How the data were processed

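Total RNA of H9 cells and of arcuate neurons made from them was depleted of ribosomal RNA and sequenced after Illumina TruSeq stranded library preparation, per the labels' protocols. FastQC 0.11.9 and hg38 are named in the submitters' processing notes. For the aligner, the counting program, its annotation and its strand setting, the name was not given in the sources used here. Values deposited per gene were read to be expected counts, not normalized and not all whole: 92.6% of all values, zeros included, and 83.7% of those above 0 were exactly whole. The design assumed raw counts, and edgeR and DESeq2 received the values rounded.

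Genes were tested in R 4.3.3 with edgeR 4.0.16 (quasi-likelihood, TMM, filterByExpr), with Benjamini-Hochberg adjustment over 18040 genes and a threshold of 0.05. A standard error is the size of the log2 fold change over the root of its F statistic. CPM used TMM-scaled library sizes of the deposited expected counts. Exon lengths and positions came from GENCODE release 29, and 94.3% of entries were found there. A gene's exon length was that of all its annotated exons merged, which can exceed the length of its transcripts in the cells. Ranks of level per length depend on this choice. Ratios were tested by exact permutation (SciPy 1.17.1). The edgeR script was tested on simulated data. Columns not used numbered 0, and no libraries held identical values.

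Members, stages, the list of 27 further assembly genes, the ribosomal protein, MYC family and marker lists were chosen with earlier results of these data known. Values in every library are given, in each stage, for the 3 largest falls, every member that rose or did not pass, WDR74 and SBDS; from the 27 further assembly genes and the ribosomal proteins the largest fall is named (none rose), and other genes of the lists were named after their values were seen. Alternatives were RLE and total-count scaling, other filters, DESeq2 1.42.0, a replicate block, leaving out each library, rounding down, subtraction of overlapping small RNA reads, summed pseudogenes and borderline members left out.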

Additional observations from a re-analysis of the deposited data

How the results depend on the processing

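The direction of the stage medians held under all 18 refits and with the borderline members left out. The median of all members was −1.28 with total counts only, −1.27 with total counts without 7SL and 7SK RNA and −1.26 with the stricter filter. For nucleolar members it was −1.36 and −1.35 with the last 2 of these settings, and for nucleoplasmic members −1.15 with the stricter filter. Total counts without 7SL and 7SK RNA moved the median of all genes by 0.11 as well. With EFL1 and EFL1P1 summed the cytoplasmic median was −0.55. Subtracting RNU2-2P reads, or those of all overlapping small RNA genes (chosen after seeing the data), put WDR74 at −1.58 and left 0 nucleolar members higher. Leaving out borderline members left 0 nucleolar members higher, 8 nucleoplasmic members lower and 3 cytoplasmic members lower, by having fewer members. Leaving out a library in turn gave 50 to 51 members lower and 2 to 3 higher, and 1 to 2 cytoplasmic members higher. The medians were then −1.44 to −1.30 for all members, −1.56 to −1.38, −1.38 to −1.23 and −0.81 to −0.65 by stage. The log2 difference of the ratio of GNL3 to GNL2, −0.04 over all libraries, was −0.092 to 0.057 then, and above 0 only without day 30 replicate 3. With the replicate block, 50 members fell and DDX56 was lost (adjusted p = 0.0507), and no other member's call changed. Same-numbered libraries of the days deviated with r of 0.07, −0.004 and −0.05 over genes, and not every library correlated best with its own number, so the numbers were not taken to pair them. The depth of day 30 replicate 3 limits low genes such as TMA16, with 34 counts there. DDX24 held at most 5 counts in any library, the deepest included, so its lack of a test is not due to that depth.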
